A study of Homo sapiens with 2 samples.

Results

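The 52 genes described here belong to the interferon response: genes that interferon switches on, the receptor chains and transcription factors that carry its signal, and sensors of foreign nucleic acid that start its production. They were listed by name, and every probe set annotated to one of them was taken, which gave 95 of the 54675 probe sets on the array. Of these, 93 name a single gene and 2 name a pair of genes. Signals were measured in KYSE-140, an established human cancer cell line of squamous origin from the esophagus, sorted by flow cytometry for the surface glycoprotein CD90, the product of THY1. The CD90+ group is 1 RNA sample and the CD90- group is 1 RNA sample, each on 1 Affymetrix U133 Plus 2.0 array. The labels name no engineered change and no drug in either group. Both come from the same line, and the sorting gates, the number of sorts and the time in culture were not given in the sources used here. With 1 array per population no replicate spread can be estimated, so no test was possible and every fold describes these 2 samples.

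Interferons are secreted proteins that warn neighbouring cells of infection. Type I interferons bind a receptor made of IFNAR1 and IFNAR2, and interferon gamma binds IFNGR1 and IFNGR2. Kinases on these receptors then activate STAT proteins, and STAT2 with IRF9 forms part of the factor that binds the interferon-stimulated response element in the promoters of target genes. In squamous epithelium the response is a defence of the surface against viruses.

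The promoters of the members show this element in sequence. RefSeq promoter windows of GRCh38.p14, running from 250 bases before to 50 bases after a gene start, were found for 43 of the 52 genes. The core of the element, GAAANNGAAA or its reverse TTTCNNTTTC, was present in at least 1 window of 28 of the 43 genes, or 65.1%, against 4.38% of the 27305 genes with a window in the whole table. By window the share was 33 of 59, or 55.9%, against 3.57% of all 35116 windows. The members held 49 distinct matches, of which 45 began before the gene start, all within 200 bases of it, and 16 genes had 2 or more. Of these matches 10 overlapped another match. The gamma-activated core TTCNNNGAA, which reads the same on both strands, was in 27.1% of the members' windows and 7.66% of all windows, and in 6 member windows it overlapped the first motif. Other spacings of the GAAA repeats were not counted. These are counts of letters in genes that were listed as interferon targets, and binding was not measured. DTX3L and PARP9 start close together on opposite strands of chromosome 3 and share a single match, at chr3:122564332-122564341.

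The windows below were chosen to set members that were higher in CD90+ cells beside members that were not. LGALS3BP had the highest ratio among members with both signals over the floor, IFIT3 is the strongest of its family, and IFITM1 and IFITM3 are neighbours on chromosome 11. IFIT5 and IFI6 each hold 3 matches and were not higher in CD90+ cells. Capitals mark the element core on either strand, and each run reads 5′ to 3′ along its gene. The LGALS3BP window is chr17:78979874-78980173 on the minus strand, and that of IFIT3 is chr10:89332279-89332578 on the plus strand, 1 of 2 windows of that gene. IFITM1 lies at chr11:313790-314089 on the plus strand and IFITM3 at chr11:320811-321110 on the minus strand. IFIT5 lies at chr10:89414318-89414617 on the plus strand and IFI6 at chr1:27672143-27672442 on the minus strand.
LGALS3BP: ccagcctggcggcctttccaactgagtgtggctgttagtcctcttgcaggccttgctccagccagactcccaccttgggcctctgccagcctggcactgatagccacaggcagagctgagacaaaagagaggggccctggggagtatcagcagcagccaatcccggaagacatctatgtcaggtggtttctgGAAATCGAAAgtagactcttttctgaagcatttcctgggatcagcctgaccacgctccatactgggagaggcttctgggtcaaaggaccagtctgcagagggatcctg
IFIT3: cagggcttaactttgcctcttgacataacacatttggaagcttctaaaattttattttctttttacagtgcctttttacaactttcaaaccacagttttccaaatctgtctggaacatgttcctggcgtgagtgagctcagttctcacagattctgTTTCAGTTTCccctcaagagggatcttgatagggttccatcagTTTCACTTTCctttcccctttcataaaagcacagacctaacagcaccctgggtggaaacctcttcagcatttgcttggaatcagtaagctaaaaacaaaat
IFITM1: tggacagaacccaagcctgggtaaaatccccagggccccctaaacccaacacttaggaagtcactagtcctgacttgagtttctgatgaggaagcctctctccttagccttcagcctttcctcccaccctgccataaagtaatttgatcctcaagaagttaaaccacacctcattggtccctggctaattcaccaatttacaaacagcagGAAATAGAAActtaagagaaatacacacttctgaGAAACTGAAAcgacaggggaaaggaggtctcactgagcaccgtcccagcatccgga
IFITM3: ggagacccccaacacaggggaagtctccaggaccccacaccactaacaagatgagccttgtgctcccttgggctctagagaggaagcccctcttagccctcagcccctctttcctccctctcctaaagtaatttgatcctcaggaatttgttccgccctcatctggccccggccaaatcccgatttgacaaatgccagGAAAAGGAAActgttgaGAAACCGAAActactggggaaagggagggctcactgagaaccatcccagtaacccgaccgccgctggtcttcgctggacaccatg
IFIT5: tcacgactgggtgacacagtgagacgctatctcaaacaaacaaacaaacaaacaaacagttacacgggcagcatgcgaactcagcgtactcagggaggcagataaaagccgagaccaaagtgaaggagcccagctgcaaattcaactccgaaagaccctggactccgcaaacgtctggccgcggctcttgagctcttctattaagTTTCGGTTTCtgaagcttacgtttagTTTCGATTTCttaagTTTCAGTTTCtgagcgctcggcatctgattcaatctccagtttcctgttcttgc
IFI6: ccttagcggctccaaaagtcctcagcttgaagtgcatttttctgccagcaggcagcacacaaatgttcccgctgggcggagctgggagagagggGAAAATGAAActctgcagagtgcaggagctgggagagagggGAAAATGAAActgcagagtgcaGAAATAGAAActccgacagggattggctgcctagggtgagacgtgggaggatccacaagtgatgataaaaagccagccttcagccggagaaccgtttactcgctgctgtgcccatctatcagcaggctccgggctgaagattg

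In the LGALS3BP window the match begins at position -58, counted from the gene start. In the IFIT3 window the matches begin at -94 and -51, in IFITM1 at -40 and -6, and in IFITM3 at -52 and -35. The IFIT5 matches lie closest to the start, at -45, -19 and -4, and those of IFI6 at -156, -115 and -93.

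The authors' values are MAS5 signals on a linear scale, scaled so that both arrays have the same trimmed mean of 499.9. A floor was set at 71.6, the median signal of the arrays, because the ratios of dim probe sets are noisy. Signals under it were raised to it, and ratios are the log2 of CD90+ over CD90-. Where 1 of the signals lay under the floor, the fold is a lower bound. Each gene was read from its brightest probe set, and a gene counts as measured where either array reached the floor on it. Different probe sets of a gene gave log2 ratios with a pooled SD of 0.31 over 6188 genes. It is the spread between probe sets on the same 2 arrays. How repeated arrays or repeated sorts would differ is left out of it. Levels of different genes come from different probes, so only the 2 populations are compared, gene by gene. THY1 read 293 in CD90+ cells and 78.9 in CD90- cells, 3.72-fold higher, matching the sort. The 4 squamous epithelial markers with a probe set were measured in both populations, SOX2 at 23329 against 27407, KRT5 at 19357 against 19208, EPCAM at 18887 against 20209 and KRT14 at 5323 against 3699.7, a log2 ratio of 0.52, while TP63 and KRT6A were not analysed here.

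The measured members were mostly higher in CD90+ cells, by small folds. Of 42 measured members 36 had a ratio above 0, where 51.2% of the 12466 measured genes did. At least 2-fold higher were 10 members, or 23.8% of the measured ones, against 2.47% of all measured genes. OAS3, GBP1, GBP2, GBP3 and IFI44L reached the floor only in CD90+ cells and SAMD9L only in CD90- cells, which fixed their signs. With both arrays at or above the floor, 31 of 36 members were above 0 and 8 were at least 2-fold higher. Of the 11373 genes measured in that way, 50.95% were above 0 and 2.11% at least 2-fold higher. No member was 2-fold lower, against 1.75% of all. At 1.5-fold the counts were 19 higher and 0 lower, against 7.37% and 6.76% of all measured genes. The ratio exceeded the pooled probe set SD upwards in 27 members, against 18.8% of all. It did so downwards in 2 members, and 13 lay within that SD. The median log2 ratio was 0.51 over the members and 0.01 over all measured genes. The share was similar among bright genes. Of 27 members whose brighter side was at least 4 times the floor, 22 were above 0 and 8 at least 2-fold higher, where 51.2% and 2.17% of the 8974 such genes were.

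**Figure D1:**
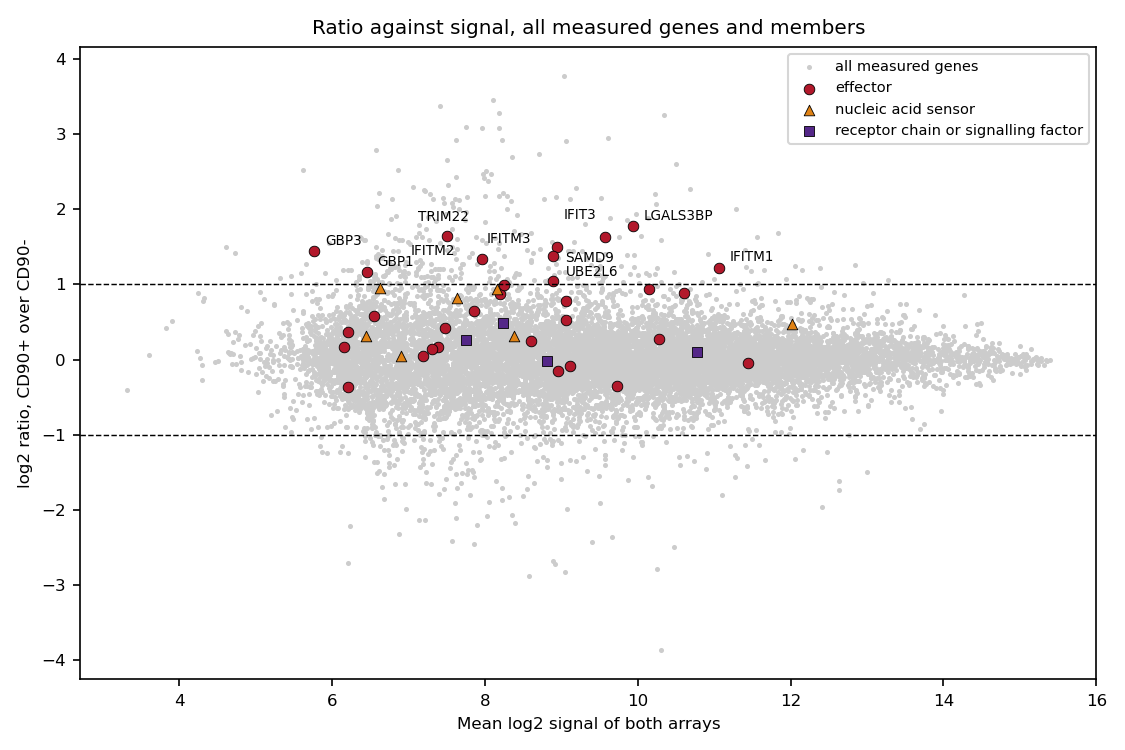
Log2 ratio, CD90+ over CD90-, against the mean log2 signal of both arrays for the 12466 measured genes (grey) and the 42 measured members, marked as effectors, nucleic acid sensors, and receptor chains or signalling factors. Dashed lines stand at 2-fold; the 10 named members lie above the upper line and none lies below the lower one.

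The difference was uneven across roles. Over the 31 measured effectors the median log2 ratio was 0.65 and 10 were at least 2-fold higher, over the 7 measured sensors it was 0.47 with none at 2-fold, and over the 2 receptor chains and the 2 measured signalling factors it was 0.29 and 0.12. Differences between roles were not tested. Bulk signals cannot tell a larger share of responding cells from more RNA per cell.

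**Figure D2:**
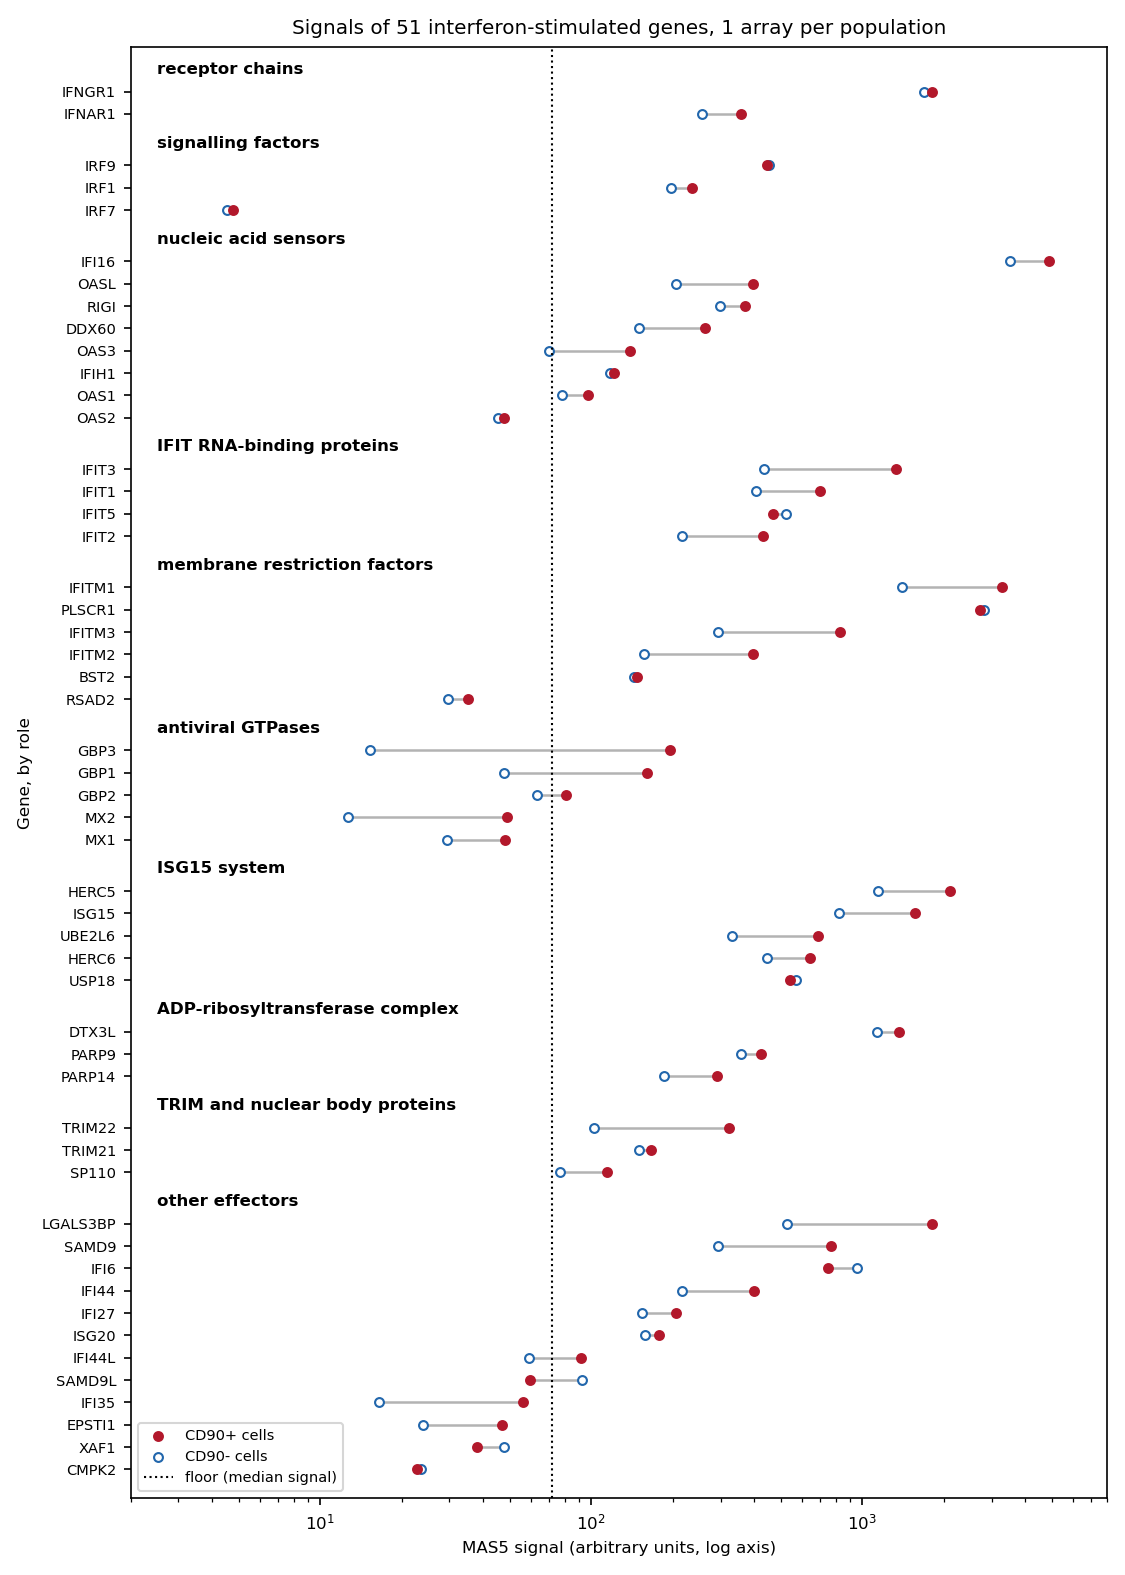
MAS5 signal on a log axis for the 51 members with a probe set of their own, grouped by role, in CD90+ cells (filled red) and CD90- cells (open blue), 1 array each. The dotted line is the floor of 71.6; most pairs have the CD90+ point to the right, and 9 genes lie left of the line in both populations.

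The receptor chains differed little between the populations. IFNAR1, a chain of the type I receptor, read 358 in CD90+ cells and 255 in CD90- cells on its brightest probe set, a 1.40-fold difference. Its other probe sets read 241 against 196, 156 against 98.1 and 114 against 126, so 3 of the 4 were higher in CD90+ cells. IFNGR1, the ligand-binding chain for interferon gamma, read 1808 against 1692 on 1 probe set and 225 against 292 on another, so its probe sets differed in sign. Each was within 1.5-fold on the probe set used.

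The transcription factors that carry the signal were also close to equal. IRF9, the DNA-binding partner of STAT2, read 445 in CD90+ cells and 452 in CD90- cells, a log2 ratio of -0.02. A further probe set that names both RNF31 and IRF9, and so belongs to neither alone, read 749 against 650.1. IRF1, a factor induced by interferon gamma, read 235 against 197, 1.19-fold higher, and 94.5 against 57.9 on its dimmer probe set. IRF7, the factor that amplifies type I interferon production, lay far under the floor at 4.77 against 4.52. STAT2 was not analysed here.

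All 7 measured nucleic acid sensors and their helpers were above 0, where 51.2% of all measured genes were. At least 1.5-fold higher were 3, against 7.37% of all. OAS3 reached the floor only in CD90+ cells, which fixed its sign. OASL, a relative of the OAS enzymes that lacks their activity and aids RIG-I, read 396 in CD90+ cells and 206 in CD90- cells, 1.92-fold higher. Its second probe set showed almost no difference, at 265 against 251. OAS3, which makes 2-5A from double-stranded RNA to switch on RNase L, read 139 against 70.0, at least 1.94-fold higher. DDX60, a helicase reported to promote RIG-I signalling, read 263 against 149.6 on its single probe set, 1.76-fold higher.

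IFI16, a nuclear sensor of foreign DNA, read 4890.01 in CD90+ cells and 3523 in CD90- cells, 1.39-fold higher. Its other probe sets read 4946 against 3305 and 1089 against 590.3, so all 3 had the same sign. RIGI, the cytoplasmic sensor of RNA ends, read 371 against 298 and 246 against 185, but its probe set prone to cross-hybridisation read 142 against 193. IFIH1, which encodes the long-RNA sensor MDA5, was almost equal at 121 against 117.5, in a stretch of chromosome 2 where the 50 nearest genes had a median log2 ratio of -0.42. OAS1 read 97.1 against 77.9, close to the floor, and OAS2 was under it at 47.5 against 45.3.

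Among the IFIT genes, which encode proteins that bind foreign RNA and lie in a row on chromosome 10, 3 of 4 were higher in CD90+ cells. IFIT3 read 1338 in CD90+ cells and 434 in CD90- cells, 3.08-fold higher, and its second probe set gave 1.87-fold (210 against 112). IFIT2 read 430.3 against 216, just inside the 2-fold line at 1.99-fold, and 93.0 against 78.1 on its dimmer probe set. IFIT1 read 699 against 406, 1.72-fold higher. IFIT5 went the other way on both of its probe sets, at 469.6 against 524 and 187 against 195. The spread within this family, from a log2 ratio of -0.16 for IFIT5 to 1.63 for IFIT3, was wider than the pooled SD between probe sets. The 50 genes around IFIT1, IFIT2 and IFIT3 had a median of -0.02.

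Among the membrane restriction factors, those of the IFITM family were high and the others were not. IFITM proteins sit in membranes and block the fusion of viruses with the cell. IFITM1 read 3281 in CD90+ cells and 1407 in CD90- cells, 2.33-fold higher, on a probe set of the class shared between transcripts. IFITM2 read 394 against 156, 2.52-fold higher, and IFITM3 read 826 against 293, 2.82-fold higher, both on probe sets of the class that may cross-hybridise. The probe set that names IFITM1 and IFITM2 together is of that class too and read 1679.9 against 552, 3.05-fold higher. These genes are close relatives side by side on chromosome 11, so the 4 probe sets may read one another's transcripts and are not independent. Their log2 ratios lay between 1.22 and 1.61, and the 50 nearest genes had a median of 0.20. Without the IFITM genes 7 of 39 members were at least 2-fold higher and 33 were above 0, where 2.45% and 51.2% of all measured genes were.

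The other membrane factors were level. BST2, or tetherin, which holds budding viruses at the cell surface, read 148 in CD90+ cells and 143 in CD90- cells. PLSCR1, a phospholipid scramblase with antiviral activity, read 2731 against 2824, and its other measured probe set 1909.7 against 1821. RSAD2, or viperin, was under the floor at 35.1 against 29.7.

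Antiviral GTPases were dim in this line. The 3 measured reached the floor only in CD90+ cells, so their ratios could only lie above 0. At least 2-fold higher in CD90+ cells were 2 of the 3, against 2.47% of all measured genes. Guanylate-binding proteins coat intracellular microbes and are strongly induced by interferon gamma. GBP3 read 195 in CD90+ cells and 15.2 in CD90- cells, at least 2.73-fold higher. GBP1 read 160.1 against 47.8, at least 2.23-fold higher, but its other measured probe set, prone to cross-hybridisation, read 73.0 against 41.7. GBP2 read 80.7 against 63.2, with only the CD90+ side over the floor. The dynamin-like MX1 and MX2 were under the floor in both populations, MX1 at 48.2 against 29.4 and MX2 at 49.0 against 12.6.

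Among the listed genes of the ISG15 system, ISG15, UBE2L6, HERC5 and HERC6 were higher in CD90+ cells. ISG15, a ubiquitin-like protein that is attached to newly made proteins, read 1568 in CD90+ cells and 822 in CD90- cells, 1.91-fold higher. UBE2L6, its conjugating enzyme, read 684 against 330.1, 2.07-fold higher. HERC5, the main ligase for ISG15 in human cells, read 2114 against 1139.6, 1.86-fold higher. HERC6, a relative of HERC5, read 641 against 446, 1.44-fold higher. The exception was USP18, the protease that removes ISG15 and damps receptor signalling, which read 539.98 against 572. UBE2L6 had no match to the element core in either of its promoter windows, and HERC5 had 3.

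The ADP-ribosyltransferase members differed by less. PARP14, a mono-ADP-ribosyltransferase, read 291 in CD90+ cells and 186 in CD90- cells, 1.57-fold higher. PARP9 and its partner DTX3L, a ubiquitin ligase, read 424 against 356 and 1363 against 1129, 1.19-fold and 1.21-fold higher. Of the TRIM and nuclear body genes, TRIM22, an antiviral ubiquitin ligase, read 322 against 103, 3.13-fold higher on a single probe set. TRIM21, the cytoplasmic antibody receptor, read 166 against 151. SP110, a nuclear body protein, read 114 against 76.7, and all 4 of its measured probe sets were above 0.

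Of the 8 other effectors measured, 6 had a ratio above 0 and 2 were at least 2-fold higher, where 51.2% and 2.47% of all measured genes were. IFI44L reached the floor only in CD90+ cells and SAMD9L only in CD90- cells, which fixed their signs. LGALS3BP, a secreted glycoprotein that binds galectins, read 1810.45 in CD90+ cells and 529.6 in CD90- cells, 3.42-fold higher on its single probe set. SAMD9, which arrests translation in infected cells, read 766 against 295, 2.60-fold higher, and 132 against 83.0 on its second probe set. IFI44 read 397 against 216, 1.83-fold higher, while its other probe set barely reached the floor at 71.8 against 32.9.

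Smaller differences made up the rest of the effectors. IFI27, a mitochondrial protein used widely as an interferon marker, read 205 in CD90+ cells and 154 in CD90- cells. ISG20, an exonuclease that degrades RNA, read 178 against 158. IFI44L read 91.9 against 59.0, with only the CD90+ side over the floor. IFI6, an antiviral protein of the endoplasmic reticulum and mitochondria, was lower in CD90+ cells at 749.6 against 957, 1.28-fold. SAMD9L, the neighbour and relative of SAMD9, was lower by at least 1.29-fold at 59.3 against 92.5. Under the floor on both arrays were IFI35 (56.1 against 16.5), EPSTI1 (47.0 against 23.9), XAF1 (38.0 against 47.9) and CMPK2 (22.8 against 23.5).

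Where a gene had several measured probe sets their signs usually matched. Of 15 such members 10 were above 0 on all of them, IFIT5 was below 0 on all, and IFNAR1, IFNGR1, RIGI and PLSCR1 had both signs. Among the 10, the measured probe sets of GBP1 reached the floor only in CD90+ cells, which fixed their sign. The same held for the dimmest measured probe sets of IRF1, SP110 and IFI44. The remaining 27 measured members rest on 1 measured probe set. Over all 63 measured probe sets of single members, 53 had a ratio above 0. Over all measured genes, read from 1 probe set each, 51.2% did, and the share over all probe sets was not counted. The measured probe sets of OAS3, GBP2, GBP3 and IFI44L also reached the floor only in CD90+ cells, and that of SAMD9L only in CD90- cells.

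**Figure D3:**
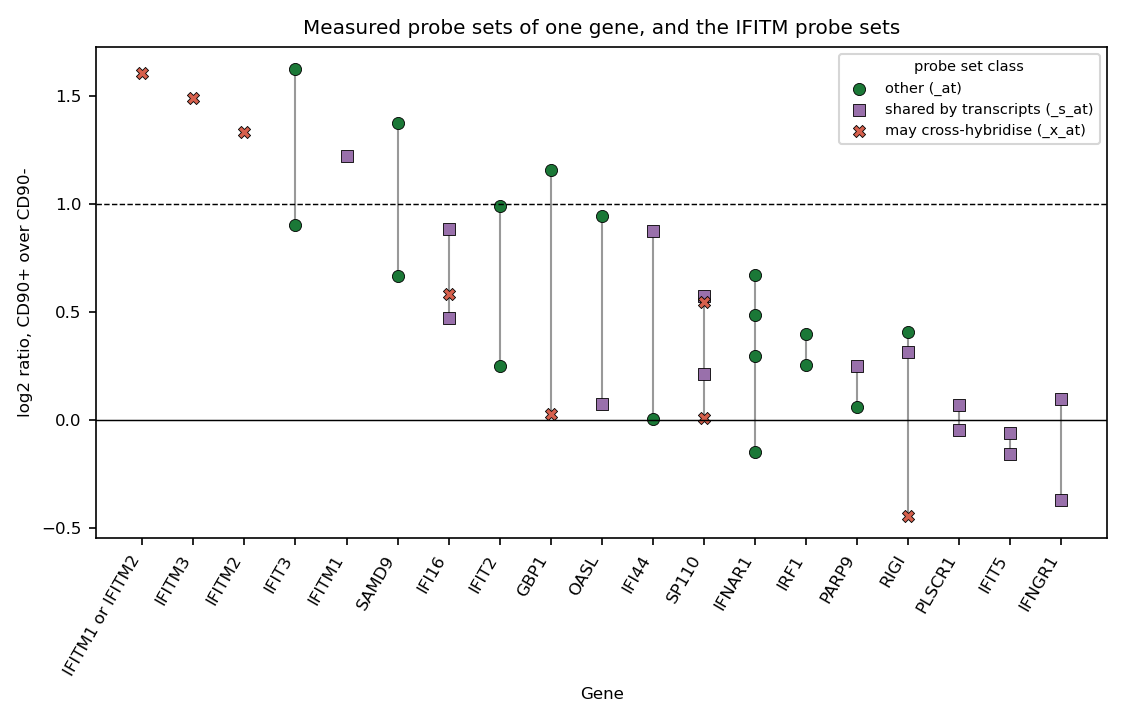
Log2 ratio, CD90+ over CD90-, of each measured probe set for members with more than 1, and for the IFITM probe sets, with the class of the probe set as the marker. Lines join probe sets of a gene; the lines are longest for GBP1, IFI44, OASL, RIGI and IFNAR1, and the 4 IFITM probe sets all lie above 1.

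The promoter element did not follow the ratios one to one. It was in at least 1 window of 7 of the 8 members that were at least 2-fold higher and had a window, of 18 of 28 members between the 2-fold lines, and of 3 of 6 members under the floor. TRIM22, IFITM2, GBP2, IFIT2, USP18, OASL, OAS2, MX2 and IRF7 had no window in the table. None of the receptor or signalling genes with a window held the core.

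Other genes of interferon production, signalling and response were read from lists made by role. Of 18 interferon genes with a probe set 13 were under the floor, among them IFNB1 (41.8 in CD90+ cells and 4.78 in CD90- cells) and IFNG (3.07 against 18.9). IFNE, an interferon of epithelia, was at least 3.16-fold lower in CD90+ cells at 67.7 against 226. IFNL1, a type III interferon, read 113 against 81.0. Receptor chains and kinases outside the members had 0 of 9 beyond 2-fold and a median log2 ratio of 0.05, with the kinase JAK1 at 2592 against 2497 and STAT3 at 1815 against 1515. Negative regulators had 0 of 10 beyond 2-fold and a median of 0.05, with the phosphatases PTPN11 at 12191 against 11926 and PTPN2 at 2907 against 2921.

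Adaptors and kinases of nucleic acid sensing went both ways, with a median of 0.08. At least 2-fold higher were 2 of 13 and at least 2-fold lower 0, against 2.47% and 1.75% of all measured genes. STING1, the adaptor for cytoplasmic DNA, read 243 in CD90+ cells and 101 in CD90- cells, 2.40-fold higher. TLR3, the endosomal receptor for double-stranded RNA, read 175 against 44.4, at least 2.44-fold higher, with only the CD90+ side over the floor. TICAM1, the adaptor that TLR3 needs, was lower at 167 against 309.

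A further list held interferon-stimulated genes that are not members. Over all measured genes 51.2% were above 0 and 2.47% at least 2-fold higher, with a median log2 ratio of 0.01. Of the 27 measured genes in the list 17 were above 0, with a median of 0.22. Among the 17, APOBEC3F, LGALS9, C1S and C1R reached the floor only in CD90+ cells, which fixed their signs. At least 2-fold higher was 1 of the 27, near the share over all genes. That gene was C1R, a complement protease, at 163 in CD90+ cells and 33.4 in CD90- cells, at least 2.28-fold. Among 17 measured genes inducible by interferon gamma 13 were above 0, with a median of 0.44. The 1 beyond 2-fold was the chemokine CXCL10, at 599 against 115, 5.19-fold higher. Among the 13, HLA-DMA, CXCL11 and ICAM1 reached the floor only in CD90+ cells, which fixed their signs. Of the class I antigen presentation genes in that list, B2M read 27087 against 19424, HLA-B 4468 against 3081, HLA-C 5378 against 4439.5 and HLA-E 600.4 against 361. TAPBP, or tapasin, which helps load peptides, read 809 against 588. The peptide transporter genes TAP1 and TAP2 went the other way, at 624 against 694 and 874.5 against 1115, and HLA-F was under the floor. These lists and the members share a pathway, so they are not independent of each other.

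**Figure D4:**
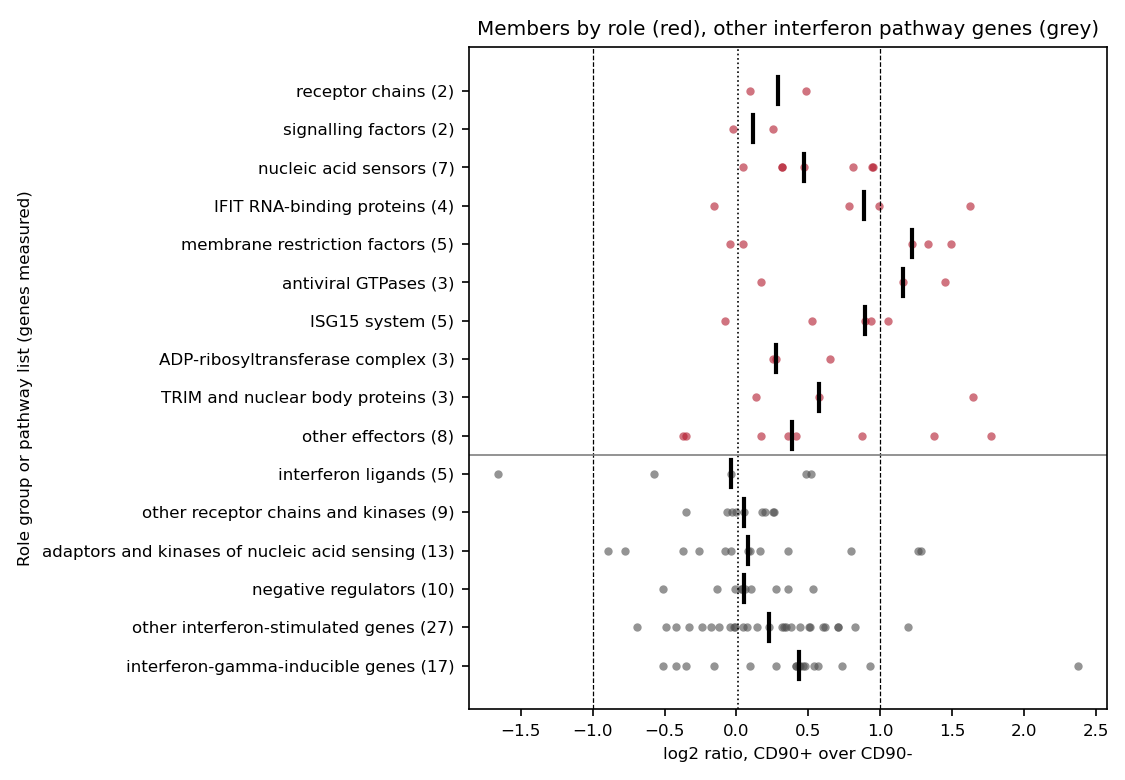
Log2 ratio, CD90+ over CD90-, of each measured gene in the 10 role groups of members (red) and in 6 lists of other interferon pathway genes (grey), with the number measured in brackets and the median as a black bar. The dotted line is the median of all measured genes and dashed lines stand at 2-fold. The medians of the membrane factors, GTPases, ISG15 system and IFIT genes lie farthest to the right. Those of the negative regulators and of the receptor chains and kinases outside the members lie near the dotted line. The measured GTPases reached the floor only in CD90+ cells.

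Markers of other cell types were looked at beside these counts, although the labels name the same cell line for both samples. All 6 leukocyte markers with a probe set were under the floor, with a summed signal of 85.2 in CD90+ cells and 133.8 in CD90- cells. Of 6 fibroblast markers 2 were measured, COL1A1 at 2125 against 1240.2 and PDGFRA at 107 against 107. The other fibroblast markers, COL1A2, COL3A1, DCN and LUM, were under the floor on both arrays. The summed signal of the 6 was 2372 against 1449.9, most of it from COL1A1. Of 4 endothelial markers 1 was measured, PECAM1 at 98.5 against 70.9, with sums of 155 against 102. No marker was listed at 0 on either array. The part of fibroblast-type transcripts in the interferon counts was not tested. The 50 nearest genes on the chromosome had a median log2 ratio within 0.2 of 0 for 41 of the 42 measured members, IFIH1 being the other.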

How the data were processed

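Total RNA of CD90+ and CD90- KYSE-140 cells was hybridised to 1 Affymetrix U133 Plus 2.0 array per population, per the labels. The deposited table holds signal intensities on a linear scale, made by the authors with MAS5 per the submitters' processing notes; the version used was not given in the sources used here, and detection calls were not used. The number of arrays limits the precision. Probe sets were named through GEO's platform annotation, updated by gene identifier to RefSeq: 41097 had 1 symbol, 1801 several and 11777 none. The 62 control probe sets were left out. The floor was the geometric mean of the array medians, 72.1 and 71.1, or the 50th percentile. Per gene the probe set of highest mean log2 signal was used, and an _x_at probe set only in the absence of others. Named in full were members at least 1.5-fold apart whose brighter signal was 2 times the floor or more, THY1, and the receptor and signalling members. From each other list up to 4 genes each way beyond 2-fold were named, or the 2 brightest. All other genes were picked with their values known. The members, lists and rules were chosen with earlier results of these data known. Promoters came from RefSeq (GRCh38.p14). Alternatives changed the floor, normalization, probe set choice and filters. The steps were tested on simulated data and run with Python 3.11.15, numpy 2.4.6 and pandas 2.3.3.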

Additional observations from a re-analysis of the deposited data

How the results depend on the processing

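The direction of the members' median and the absence of members at least 2-fold lower were the same under all 13 alternatives. The count at least 2-fold higher was 4 of 21 measured members with the floor at the 75th percentile (against 1.10% of all genes measured there), 6 of 30 without the _x_at, _s_at and _a_at classes (2.34%), and 6 of 23 with a mean signal of at least 4 times the floor (1.45%). Ratios above 0 numbered 16 of 21 with the higher floor and 18 of 23 with the filter on mean signal, each against 51.1% of all genes. Their share of the measured members ran from 76.2% to 88.1% over the alternatives. The median log2 ratio was 0.29 by the probe set with the smallest change in each gene, where the count at least 2-fold higher was 7 of 42, against 1.78% of all genes. Among the 22 named members the sign turned for IFNAR1 by its least changed probe set (-0.15), for IFNGR1 by the mean of its probe sets (-0.14), and for IRF9 under loess (0.00040) and after the neighbours' median was subtracted (0.074). Without a floor the log2 ratio of GBP3 was 3.68 in place of a bound of 1.45, and that of GBP1 1.74 in place of 1.16. The ratios of OASL, IFIT2, IFIT3, GBP1, SAMD9 and IFI44 were smaller by the mean of their probe sets, at 0.51, 0.62, 1.26, 0.59, 1.02 and 0.44. Depth in the sense of read counts does not apply. Genes near the floor are limited by signal over background, and no alternative stands in for a second sort.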

Other observations

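Members that lie near each other on a chromosome differed in the size of their ratios. In 2 such groups they differed in sign, though the floor fixed the sign of SAMD9L. SAMD9 and SAMD9L are neighbours on chromosome 7, and the log2 ratio was 1.38 for SAMD9 and -0.37 for SAMD9L. The second came from signals of 59.3 in CD90+ cells and 92.5 in CD90- cells, close to the floor. SAMD9L reached the floor only in CD90- cells. Its other probe sets, under the floor on both arrays, read higher in CD90+ cells, at 50.05 against 17.8 and 9.603 against 3.47. On chromosome 10 IFIT1, IFIT2 and IFIT3 stood at 0.78, 0.99 and 1.63 and IFIT5 at -0.16. In the other groups named here every measured member had a ratio above 0. HERC5 and HERC6 on chromosome 4 stood at 0.89 and 0.52, and the IFITM genes on chromosome 11 between 1.22 and 1.49. GBP1, GBP2 and GBP3 share a stretch of chromosome 1, at bounds of 1.16, 0.17 and 1.45. They reached the floor only in CD90+ cells, which fixed the sign. On chromosome 12 OAS1 stood at 0.32 and OAS3 at a bound of 0.95, and OAS2 was under the floor. PARP9, DTX3L and PARP14 on chromosome 3 lay between 0.25 and 0.65. Differences between neighbours were not tested.

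Several genes that are among the strongest responders to interferon in many cell types, MX1, MX2, OAS2, RSAD2, IFI35, EPSTI1 and CMPK2, stayed under the floor in both populations, so no ratio was taken for them. With the floor at the 25th percentile 50 members were measured and 12 were at least 2-fold higher, where 6.51% of all genes measured at that floor were.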
